A study of Mus musculus with 9 samples.

Results

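The 35 genes described here are genes of plasma cells and of the secretory pathway, taken by symbol from the probes of an Agilent whole-genome mouse array and measured in mouse spleen. All 35 were found among the 32451 genes or accessions of the array, on 41 of its 39429 probes. Total RNA from the spleen of female BALB/c mice had been hybridised to 9 arrays, 1 per sample, in 3 groups of 3. The first group received little selenium and was free of Graves' disease (low Se non-GD). The second was diseased on that same low supply (low Se GD). The last was diseased and received normal selenium (normal Se GD). In Graves' disease antibodies against the thyrotropin receptor stimulate the thyroid. The title asks what selenium intake does to its risk and course. Neither age, nor how disease was induced, nor what the diets held is stated in the labels, and there were no healthy mice on normal selenium. Whether each sample is a different animal is not stated, so p-values here reflect only how far these samples differ, and that spread may be technical.

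Plasma cells are antibody-secreting cells that arise from B cells, and the spleen is one of the organs in which they form. Proteins for secretion enter the endoplasmic reticulum (ER) through the Sec61 channel, lose their signal peptide, receive glycans, are folded by chaperones, disulfide isomerases and the lectins calnexin and calreticulin, and are degraded when they fail to fold. When unfolded proteins build up, the sensors IRE1, ATF6 and PERK start the unfolded protein response. IRE1 splices the Xbp1 transcript, and XBP1 and ATF6 raise chaperone and degradation genes, while PERK slows translation and acts through ATF4 and CHOP (Ddit3). XBP1 is also required for the secretory capacity of plasma cells.

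The ER stress element (ERSE) is the promoter sequence through which ATF6 and XBP1 raise ER genes. It was searched for as CCAAT, any 9 bases and CCACG, on both strands in the 250 bases before each gene's start, in RefSeq promoters of build GRCm38.p6, where 30 of the 35 genes were matched (not Mzb1, Sec61a1, Sec11c, Hyou1 and Manf). It was present in 9 of these 30 genes (Hspa5, Calr, Derl3, Hsp90b1, Canx, Pdia6, Dnajc3, Creld2 and Syvn1) and in 0.113% of all 32851 promoters. The related ERSE-II (ATTGG, any 1 base and CCACG, in 0.03% of all promoters) was present only for Herpud1 among the members matched, and the XBP1 element UPRE (TGACGTGG, in 0.563%) only for Txndc5. The ATF4 element CARE (TTGCATCA, in 0.791%) was also present only for Herpud1. The sequences of called members that held an element, and of Hspa5, the gene in which the ERSE is best known, follow, to show each element in its setting. Capitals mark the fixed letters of the element, each sequence reads 5′ to 3′ toward the gene, and an element on the other strand appears as CGTGG before ATTGG.
Calr, chr8:84847061-84847107, minus strand: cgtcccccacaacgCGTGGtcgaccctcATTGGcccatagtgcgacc
Canx, chr11:50325786-50325832, minus strand: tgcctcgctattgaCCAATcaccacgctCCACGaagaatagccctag
Derl3, chr10:75893228-75893274, plus strand: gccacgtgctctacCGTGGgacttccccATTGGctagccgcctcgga
Hsp90b1 far element, chr10:86705624-86705670, minus strand: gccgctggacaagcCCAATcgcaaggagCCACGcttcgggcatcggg
Hsp90b1 near element, chr10:86705519-86705565, minus strand: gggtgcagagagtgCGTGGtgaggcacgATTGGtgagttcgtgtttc
Herpud1 ERSE-II, chr8:94386363-94386401, plus strand: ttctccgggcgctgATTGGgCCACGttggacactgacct
Herpud1 CARE, chr8:94386303-94386338, plus strand: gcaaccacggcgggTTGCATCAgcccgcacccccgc
Txndc5 UPRE, chr13:38528031-38528066, minus strand: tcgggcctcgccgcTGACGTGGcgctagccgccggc
Hspa5, chr2:34772011-34772057, plus strand: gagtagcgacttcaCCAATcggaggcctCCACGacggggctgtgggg
A match describes the letters in this window and is not evidence of binding. A gene without a match was not searched for inexact elements or beyond the window.

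Before the results, several features of the arrays need stating. Of the 43020 non-control spots, 72.6% to 82.6% rose well above background on 8 arrays, but 58.4% on normal Se GD replicate 3. By the scan times in their headers, the 3 low Se non-GD arrays were scanned with low Se GD replicate 1 (taken here as slide 1), replicates 2 and 3 of low Se GD together with 1 and 2 of normal Se GD (slide 2), and normal Se GD replicate 3 alone (slide 3). Slide thus means arrays that share a scan time throughout, which need not be the physical slide. The signal of low Se non-GD replicate 3 fell between those of its group's other 2 arrays for 78.3% of 18541 genes (30 of the 35 described here), and low Se GD replicate 2 for 69% (28 of the 35). What lies behind this was not tested, and results are also given without these in-between arrays. The E1A control spot a107 read 4.72 to 5.85 in low Se non-GD and 0.868 to 2.51 on the other 6 arrays, and the ribosomal Rn28s1 probe 0.453 to 0.828 against 3 to 5.99 (log2 scale as below). The part of either in the results was not tested. Of the markers of spleen lymphocytes, 15 of 15 B cell and 10 of 10 T cell genes were well above background on all 9 arrays, as were 34 of the 35 genes described here. Plasma cell transcripts were thus measurable (Jchain, Sdc1 and Xbp1 on every array), while none of the 12 immunoglobulin constant region genes could be named on the array.

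Signals are given as log2 of the processed signal minus the array's 75th percentile, so that 0 is the 75th percentile and negative values are dimmer. They compare arrays for 1 gene and do not rank genes. Differences between groups are log2 differences with the standard error (SE) of the limma fit, and a gene is called where the p-value, after Benjamini-Hochberg adjustment across the 26325 genes tested, is under 0.05. All 35 genes passed the filter on dim probes and were tested. In bulk RNA a change in the number of plasma cells and a change in the RNA per cell cannot be told apart.

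With disease on the low supply, 12 of the 35 genes were higher than in low Se non-GD, 3 were lower and 20 were not called. Of the 3 lower, Eaf2 and Sec61b each had a second probe that was called higher, and with the mean of a gene's probes the split was 12 higher and 1 lower. The chaperone lectin Calr, the cochaperones Dnajb9 and Sdf2l1, the isomerase Pdia4 and the plasma cell genes Xbp1, Jchain and Sdc1 were among those that rose, by 1.57-fold to 2.5-fold. Over all genes, 24.9% were called in this comparison, 12.8% higher and 12.2% lower. The median difference of the 35 genes was 0.30, against 0.08 over all genes tested. The 3 arrays of low Se GD lay above all 3 of low Se non-GD for 21 of the 35 genes and below them for 6, where all genes gave 29.5% and 23.4%. The calls depended on the arrays included, as did those over all genes. Without low Se non-GD replicate 3 there were 7 (13.5% of all genes called), and without low Se GD replicate 2 also 7 (13.1%). Without both there was 1 (Calr, when 1.02% of all genes were called). Without normal Se GD replicate 3, which enters only through the shared spread, there were 23, when 41% of all genes were called. Within slide 1, with 1 low Se GD array, 1 gene was called (Pdia4, 3.57% of all genes), and with the slide as a block 17. The slide as a block called 28.3% of all genes. Under median scaling the split was 10 higher and 1 lower (23.7% of all genes called).

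Between the supplies in diseased mice, 3 of the 35 genes were called. Sdf2l1 was higher on the normal supply, and Trib3 and Ppp1r15a, which act downstream of PERK and ATF4, were lower. Over all genes 1.27% were called here, 0.976% higher and 0.292% lower. The median difference was 0.07, against 0.00 over all genes. Arrays of the groups did not overlap for 11 genes that were higher on the normal supply and 5 that were lower, where all genes gave 17.9% and 11.4%. These 3 calls were lost under most of the 22 alternatives (Sdf2l1 kept its call in 7, Trib3 and Ppp1r15a in 6 each), including the omission of any 1 array other than normal Se GD replicate 3. Within slide 2, where 2 arrays of each group were scanned together, all 3 were called again, with 10.6% of all genes called. Within that slide 11 of 13 erythroid and 11 of 12 proliferation markers were also called lower on the normal supply, and their part in these calls was not tested.

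Normal Se GD against low Se non-GD, which differ in both disease and supply, gave 12 genes higher, 3 lower (Sec61b, whose second probe was called higher, Ddit3 and Ppp1r15a) and 20 not called. The largest rises were those of Pdia4, Sdf2l1, Calr, Sdc1 and Xbp1, from 2.15-fold to 3.71-fold. Over all genes 32.3% were called, 18.9% higher and 13.4% lower. The median difference was 0.30, against 0.06 over all genes. Groups did not overlap for 18 genes that were higher and 6 that were lower, where all genes gave 28% and 21.1%. Without the 2 in-between arrays 8 of the 15 were called (11.6% of all genes). With the slide as a block 10 genes were called (18.3% of all genes), 8 of them among the 15, with Atf4 lower and Prdm1 higher as additions. Under median scaling the split was 9 higher and 1 lower (27.9% of all genes called). No scan time was shared by both groups. Xbp1, Jchain, Dnajb9, Sdf2l1, Pdia4, Calr and Sec61b kept their call in all 21 alternatives. Each pair of the 3 comparisons shares a group, so they are set side by side and are not independent of each other.

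**Figure D1:**
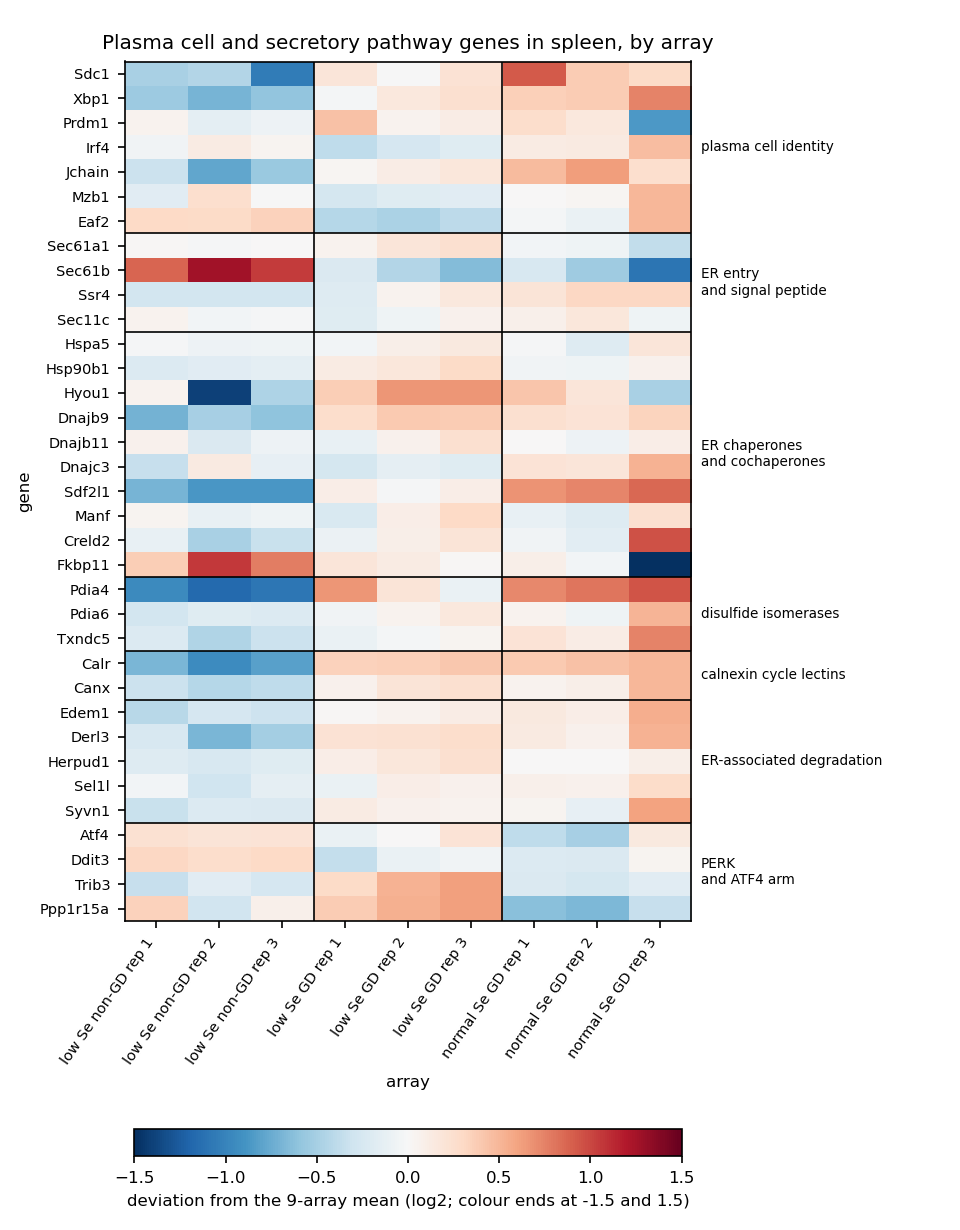
Deviation of each of the 35 genes (rows, by role) from its mean over the 9 arrays (columns), as log2 signal, with red above and blue below that mean. The 3 low Se non-GD arrays are blue for Xbp1, Jchain, Sdf2l1, Dnajb9, Pdia4, Calr, Canx and Derl3, and red for Sec61b, while Fkbp11 on normal Se GD replicate 3 stands apart from the other arrays.

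**Figure D2:**
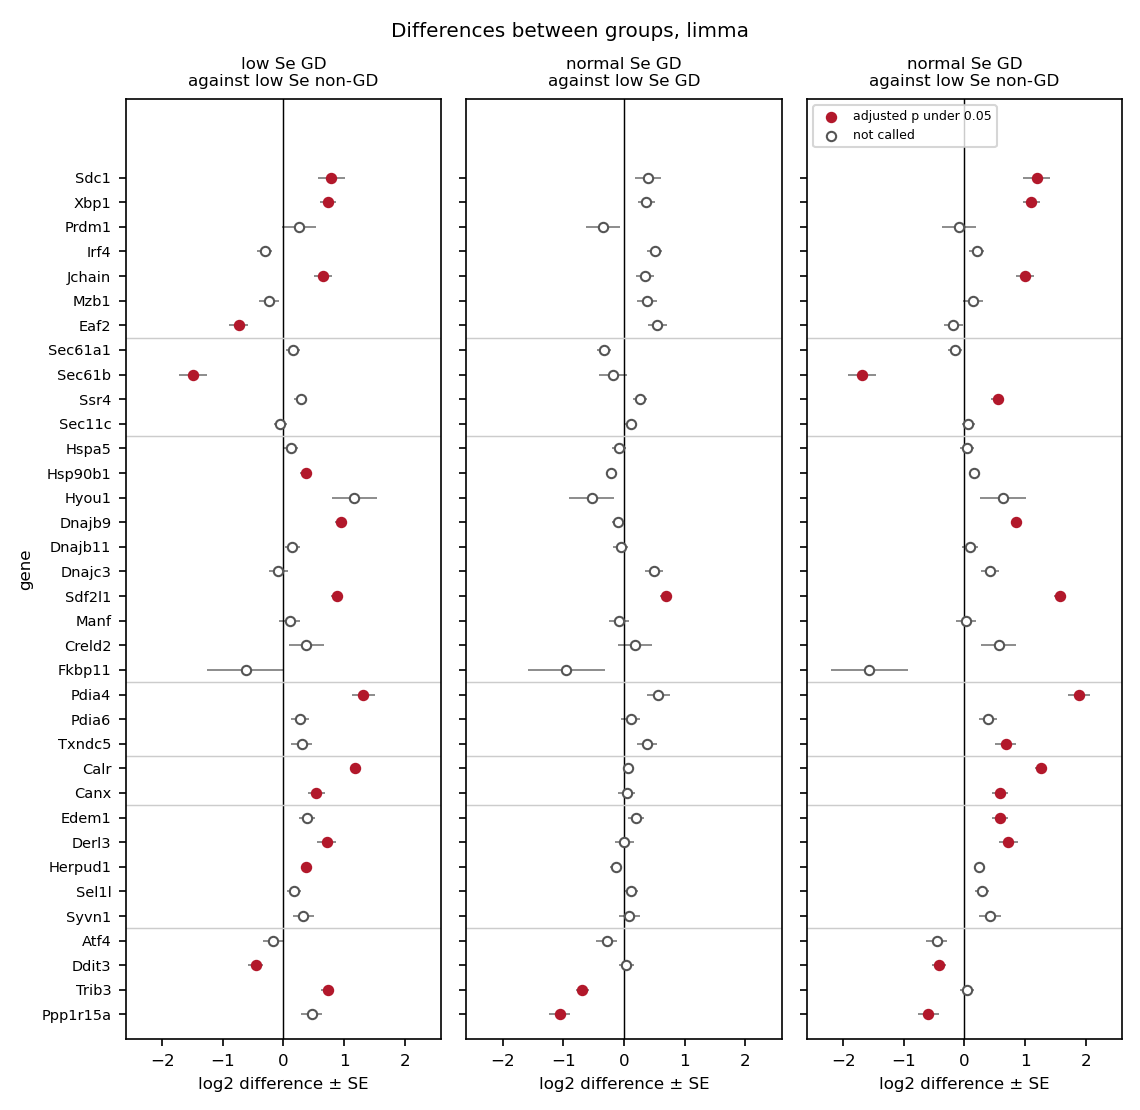
Log2 difference (point) with its SE (line) for each of the 35 genes in the 3 comparisons, with filled points for an adjusted p under 0.05. Called genes number 15, 3 and 15 from left to right, and Sdf2l1 is filled on the right of 0 in all 3 panels.

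Of the 7 plasma cell genes, Xbp1, Jchain and Sdc1 were called higher in both comparisons with low Se non-GD, Eaf2 was called lower in the first by the probe that stands for it, and Irf4, Prdm1 and Mzb1 were not called. All genes tested gave 12.8% and 18.9% higher in these 2 comparisons. Jchain encodes the chain that joins secreted IgA and IgM. Its signal was 4.42, 3.96 and 4.19 in low Se non-GD, then 4.77, 4.85 and 4.91 in low Se GD, then 5.21, 5.37 and 4.99 in normal Se GD. The 3 groups did not overlap, in that order from low to high. It rose by 0.65 ± 0.15 (1.57-fold, adjusted p = 0.0159) with disease on the low supply and stood 1.0 ± 0.15 above low Se non-GD on the normal supply (2.0-fold, adjusted p = 0.00237), while the 2 diseased groups differed by 0.35 ± 0.15 (adjusted p = 0.25).

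Xbp1, the transcription factor of secretory cells, read 1.88, 1.72 and 1.83 in low Se non-GD, then 2.39, 2.58 and 2.67 in low Se GD, then 2.78, 2.80 and 3.17 in normal Se GD. Here too no 2 groups overlapped. The rises over low Se non-GD were 0.74 ± 0.14 (1.67-fold, adjusted p = 0.00722) and 1.11 ± 0.14 (2.15-fold, adjusted p = 0.00134), and the difference between the supplies was 0.37 ± 0.14 (adjusted p = 0.191). Where the probe lies relative to the spliced stretch was not checked, so that nothing can be said of the spliced form.

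Sdc1 encodes syndecan-1 (CD138), the surface marker used to sort plasma cells. It read -4.05, -4 and -4.61 in low Se non-GD, then -3.37, -3.57 and -3.34 in low Se GD, then -2.64, -3.17 and -3.27 in normal Se GD, again with no overlap between any 2 groups. It was 0.79 ± 0.22 and 1.19 ± 0.22 above low Se non-GD (1.73-fold and 2.28-fold, adjusted p = 0.0338 and 0.0054), and 0.40 ± 0.22 apart between the supplies (adjusted p = 0.365). With normexp background correction these rises were 0.03 and 0.43 and neither was called (adjusted p = 0.886 and 0.0783), the adjusted p of the first ranging from 0.0173 to 0.886 over its alternatives.

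Irf4, a transcription factor required for plasma cells that activated B cells also express, ranged from -0.21 to -0.04 in low Se non-GD, from -0.55 to -0.34 on the low Se GD arrays and from -0.04 to 0.30 on those of normal Se GD. Its low Se GD arrays were below those of both other groups, but its differences of -0.31 and 0.51 were not called (adjusted p = 0.108 and 0.0819). Prdm1 encodes Blimp-1, the factor that fixes plasma cell fate. It was not called in any comparison (0.25, -0.35 and -0.09, adjusted p from 0.551 to 0.834), and normal Se GD replicate 3, at -1.61, was far below the -0.49 and -0.59 of its group. Mzb1, a cochaperone of immunoglobulin assembly, was not called either (-0.23, 0.38 and 0.15), and overlapped between low Se non-GD and normal Se GD.

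Eaf2, an elongation cofactor found in B-lineage cells, was a member whose direction depended on the probe. The probe that stands for the gene read 2.71, 2.70 and 2.77 in low Se non-GD and 2.0, 1.94 and 2.03 in low Se GD, a difference of -0.74 ± 0.16 (adjusted p = 0.0127). The second probe read -0.20, -0.44 and -0.32 against 1.08, 0.73 and 0.31, a rise of 1.03 ± 0.18 (adjusted p = 0.00635 over 31868 probes). In normal Se GD the probe that stands for the gene was at 2.39, 2.31 and 2.92, and the second at 0.24, 0.20 and 0.22. So no direction can be given for the gene as a whole, and the mean of both probes gave 0.14 (adjusted p = 0.462) in the first comparison.

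**Figure D3:**
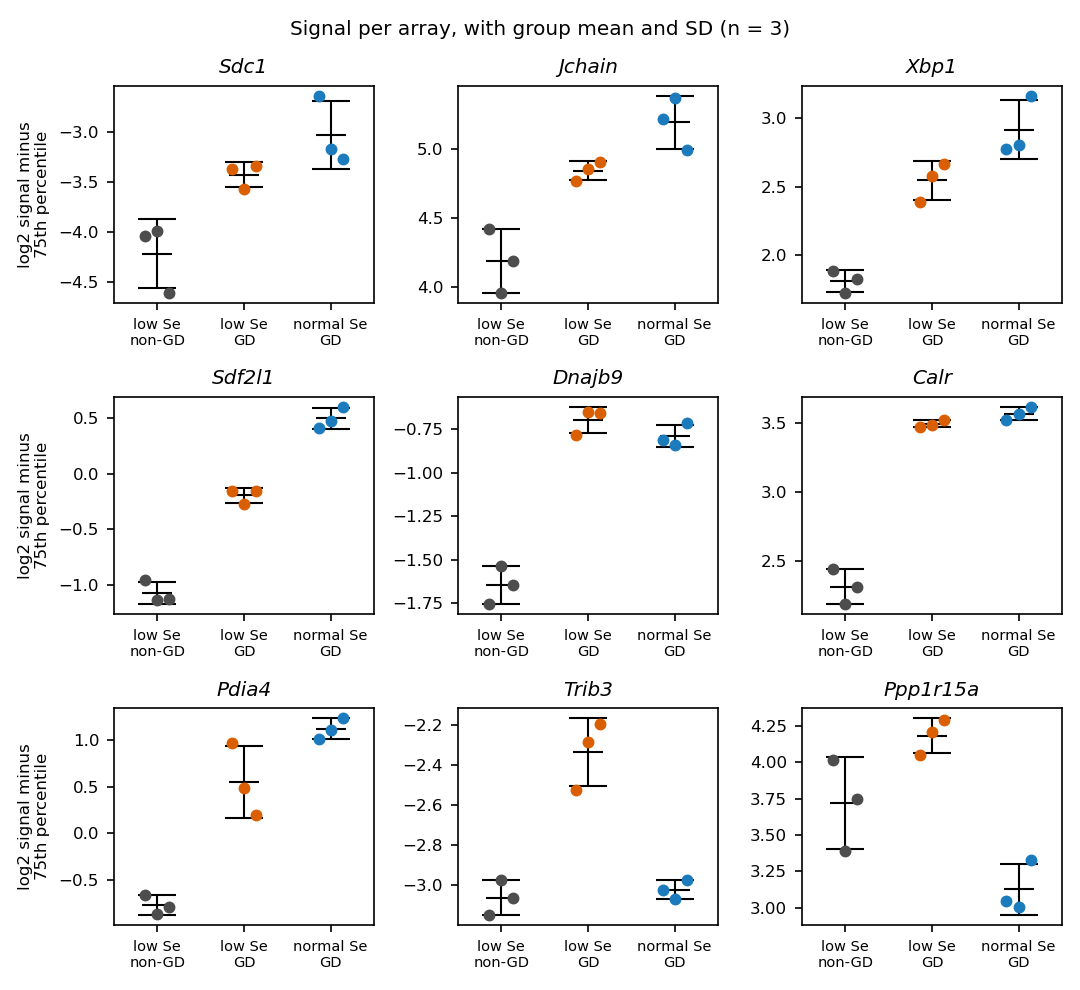
Scaled log2 signal (75th percentile at 0) for 9 genes (points, 1 per array), with group mean and SD (bars, n = 3). Jchain, Xbp1, Sdc1 and Sdf2l1 step up from low Se non-GD to low Se GD and to normal Se GD. The step between the diseased groups was called only for Sdf2l1 among them, and kept in 7 of 22 alternatives. Calr and Dnajb9 are near 1 level in both diseased groups, and Trib3 is highest in low Se GD.

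Of the 4 genes of entry into the ER, Ssr4 was called higher in the last comparison, Sec61a1 and Sec11c were not called, and the probes of Sec61b were called in opposite directions. Ssr4, a subunit of the translocon-associated protein complex, read 1.52 on each of the low Se non-GD arrays, 1.60, 1.84 and 1.96 in low Se GD, and 1.99, 2.10 and 2.10 in normal Se GD. It was called only in the last comparison (0.55 ± 0.11, 1.46-fold, adjusted p = 0.00794), with 0.28 and 0.27 in the others, and lost that call without the in-between arrays (0.55, adjusted p = 0.082) and with the slide as a block (0.23, adjusted p = 0.217). Sec61a1, the channel subunit, lay between 3.75 and 4.37 on all 9 arrays, and Sec11c, a catalytic subunit of the signal peptidase, between 1.97 and 2.31. Neither was called in any comparison.

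Sec61b, the small subunit of the channel, was the other gene called in opposite directions by its probes. The probe that stands for it read 7.84, 8.23 and 8.02 in low Se non-GD, then 6.75, 6.53 and 6.32 in low Se GD, then 6.73, 6.44 and 5.87 in normal Se GD. It was 2.82-fold and 3.21-fold lower in the diseased groups (adjusted p = 0.00372 and 0.00183), by differences of -1.5 ± 0.23 and -1.68 ± 0.23. The second probe read -0.81, -1.26 and -1.16, then -0.55, -0.32 and -0.20, then -0.32, -0.24 and -0.73. It was higher in both (0.72 ± 0.18 and 0.65 ± 0.18, adjusted p = 0.0234 and 0.0274). The 2 probes thus gave 2 answers on the same arrays, and no direction is given for Sec61b.

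**Figure D4:**
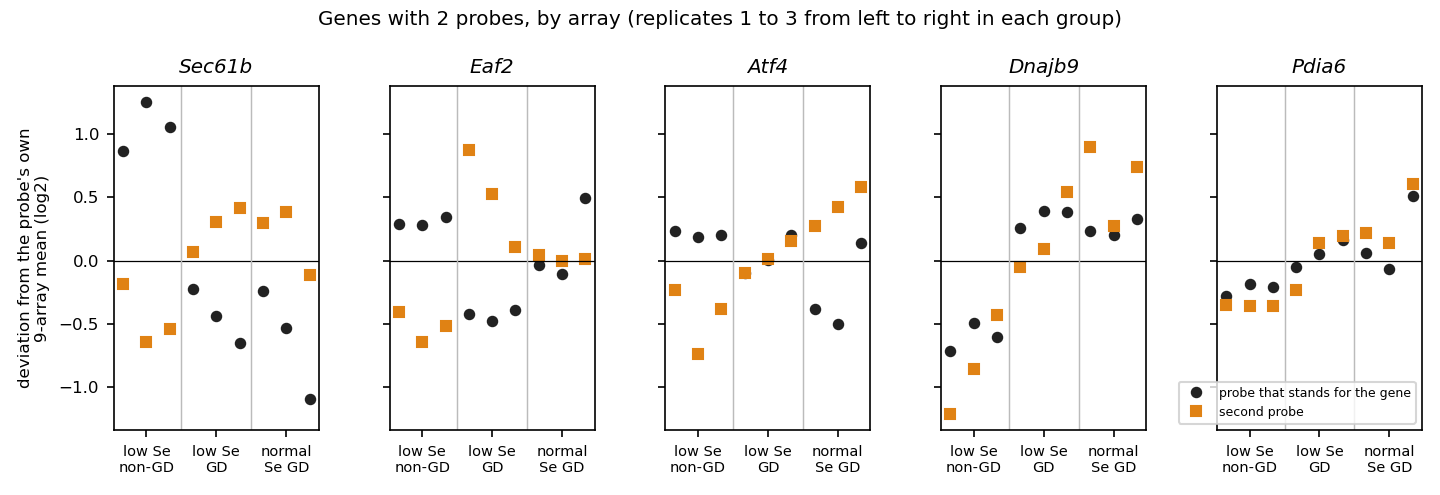
Deviation of each probe from its own mean over the 9 arrays (log2), for 5 genes with 2 measured probes each, with the arrays of a group from left to right as replicates 1 to 3. The 2 probes part for Sec61b, Eaf2 and Atf4, and lie closer for Dnajb9 and Pdia6.

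The ER chaperones split into a few cochaperones that rose clearly and a larger number, the most general chaperone Hspa5 included, with no call. Sdf2l1, a component of the ER chaperone complex, was the only member called in all 3 comparisons. It read -0.96, -1.13 and -1.13 in low Se non-GD, then -0.16, -0.27 and -0.16 in low Se GD, then 0.42, 0.48 and 0.60 in normal Se GD. The groups were wide apart relative to their spread, with SDs of 0.10, 0.07 and 0.10. It rose by 0.88 ± 0.10 with disease on the low supply (1.84-fold, adjusted p = 0.00146), by a further 0.69 ± 0.10 on the normal supply (1.62-fold, adjusted p = 0.0385), and by 1.57 ± 0.10 from first to last (2.97-fold, adjusted p = 0.000186). The step between the supplies kept its size under the alternatives (0.59 to 0.73) with adjusted p from 0.013 to 0.512, and was 0.66 within slide 2 (adjusted p = 0.038).

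Dnajb9 (ERdj4) is a cochaperone of Hspa5 that is a known target of XBP1. It read -1.76, -1.54 and -1.65 in low Se non-GD, then -0.78, -0.65 and -0.66 in low Se GD, then -0.81, -0.84 and -0.71 in normal Se GD. Both diseased groups were above low Se non-GD without overlap, by 0.95 ± 0.10 (1.93-fold, adjusted p = 0.00108) and 0.86 ± 0.10 (1.81-fold, adjusted p = 0.0011), and they overlapped with each other (-0.09 ± 0.10, adjusted p = 0.647). Its second probe was also called higher in both (1.03 ± 0.26 and 1.47 ± 0.26), although on low Se non-GD it was well above background on 1 array only. Within slide 1 the difference was 0.86 (adjusted p = 0.0636).

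Hsp90b1 (GRP94), the ER member of the Hsp90 family, read 4.93, 4.96 and 4.98 in low Se non-GD, then 5.26, 5.30 and 5.43 in low Se GD, then 5.08, 5.07 and 5.20 in normal Se GD. It rose by 0.37 ± 0.09 in the first comparison (1.29-fold, adjusted p = 0.0204) and was not called in the others (-0.21 and 0.16). That call was lost in 8 of 22 alternatives, among them the omission of the in-between arrays (adjusted p = 0.21). Hspa5 (BiP), the Hsp70 of the ER, read 5.24, 5.18 and 5.19, then 5.21, 5.35 and 5.40, then 5.24, 5.07 and 5.43. All 3 groups overlapped, and its differences of 0.12, -0.08 and 0.04 (SE 0.12) had adjusted p from 0.5 to 0.809. Unlike these, Hyou1 (GRP170) was measured near background, on 7 of 9 arrays. It differed by 1.17 ± 0.37 in the first comparison, just short of the threshold (adjusted p = 0.0551).

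The remaining chaperone genes were not called in any comparison. Dnajb11 and Dnajc3, cochaperones of Hspa5, differed by -0.08 to 0.50, and Manf, a secreted factor that binds Hspa5, by -0.08 to 0.10. Creld2, an ER stress gene, differed by 0.19 to 0.56. Its array of normal Se GD replicate 3 was at 2.66, against 1.65 and 1.55 for the others of that group. Fkbp11, a prolyl isomerase of secretory cells, was at -3.56 on the same array, against -0.91 and -1.04, while low Se non-GD lay between -0.63 and 0.05 and low Se GD between -0.98 and -0.82. Its differences of -0.62, -0.95 and -1.57 had an SE of 0.64, and without normal Se GD replicate 3 it was called lower in both comparisons with low Se non-GD (-0.62 and -0.71, adjusted p = 0.0254 and 0.0221). Without that array Fkbp11 thus ran against the called chaperone genes.

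Both lectins of the calnexin cycle, which holds glycoproteins until they are folded, were higher in both diseased groups than in low Se non-GD and were not called between the supplies. All genes tested gave 12.8% and 18.9% higher in the comparisons with low Se non-GD. Calr (calreticulin) read 2.44, 2.18 and 2.31 in low Se non-GD, then 3.48, 3.49 and 3.53 in low Se GD, then 3.52, 3.57 and 3.62 in normal Se GD. The 6 diseased arrays spanned 3.48 to 3.62, all well above the 3 others. It was 1.19 ± 0.10 higher (2.28-fold, adjusted p = 0.000492) and 1.26 ± 0.10 higher (2.40-fold, adjusted p = 0.000335), with 0.07 ± 0.10 between the supplies (adjusted p = 0.712). Low Se GD replicate 1, scanned with the low Se non-GD arrays, gave a difference of 1.17 within that slide (adjusted p = 0.0539). Canx (calnexin), its membrane-bound relative, read 1.78, 1.69 and 1.73, then 2.17, 2.31 and 2.35, then 2.16, 2.2 and 2.61, and rose by 0.54 ± 0.13 and 0.59 ± 0.13 (1.46-fold and 1.5-fold, adjusted p = 0.0225 and 0.0132). Both calls of Canx were lost without the in-between arrays (adjusted p = 0.222 and 0.1).

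All 3 disulfide isomerases had positive differences in each comparison. In the first 1 was called higher and in the last 2, where all genes gave 12.8% and 18.9%. Pdia4 (ERp72) read -0.66, -0.87 and -0.79 in low Se non-GD, then 0.96, 0.49 and 0.20 in low Se GD, then 1.02, 1.11 and 1.24 in normal Se GD. Low Se GD was the widest group, and no groups overlapped. Its rises of 1.32 ± 0.19 (2.5-fold, adjusted p = 0.00294) and 1.89 ± 0.19 (3.71-fold, adjusted p = 0.00071) were the largest among the 35 genes in the first and the last comparison, and the supplies differed by 0.57 ± 0.19 (adjusted p = 0.155). Txndc5 (ERp46), an isomerase abundant in plasma cells, read 1.61, 1.36 and 1.49, then 1.71, 1.79 and 1.86, then 2.02, 1.92 and 2.56. It was called in the last comparison only (0.68 ± 0.17, 1.60-fold, adjusted p = 0.0183), with 0.30 and 0.38 in the others, and lost that call in 6 of 21 alternatives. Pdia6 differed by 0.28, 0.11 and 0.39 without a call, and its second probe was called in the last comparison (0.68 ± 0.16, adjusted p = 0.0137).

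The 5 genes of ER-associated degradation had positive differences between each diseased group and low Se non-GD, with medians of 0.38 and 0.42 against 0.08 and 0.06 over all genes. In each of these comparisons 2 were called higher, where all genes gave 12.8% and 18.9%. Derl3, a derlin of the export channel that is high in plasma cells, read -0.80, -1.25 and -1.07 in low Se non-GD, then -0.34, -0.33 and -0.29 in low Se GD, then -0.42, -0.49 and -0.04 in normal Se GD. Both diseased groups lay above low Se non-GD and overlapped with each other. It rose by 0.72 ± 0.16 in each comparison (1.64-fold and 1.65-fold, adjusted p = 0.0142 and 0.0107). Herpud1, which organises the degradation complex, read 2.15, 2.11 and 2.17, then 2.44, 2.52 and 2.59, then 2.35, 2.36 and 2.44. Its rise was called with disease on the low supply (0.38 ± 0.08, 1.30-fold, adjusted p = 0.0158) and was 0.24 ± 0.08 in the last comparison (adjusted p = 0.0654). Edem1, a mannosidase-like protein that directs misfolded glycoproteins to degradation, read 1.29, 1.46 and 1.39, then 1.71, 1.76 and 1.82, then 1.84, 1.80 and 2.25, and was called in the last comparison (0.59 ± 0.13, 1.5-fold, adjusted p = 0.0125) but not in the first (0.38 ± 0.13, adjusted p = 0.0709). Sel1l and Syvn1, the adaptor and the ubiquitin ligase of the same complex, differed by 0.18 to 0.42 in these comparisons without a call. Without the in-between arrays all calls of this group were lost (adjusted p from 0.0885 to 0.207).

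The genes of the PERK and ATF4 arm did not move together. Trib3, a pseudokinase induced by ATF4 and CHOP, read -3.15, -2.98 and -3.06 in low Se non-GD, then -2.53, -2.28 and -2.2 in low Se GD, then -3.03, -3.07 and -2.97 in normal Se GD. Only the low Se GD arrays stood apart, above all others, while the other groups overlapped. It rose by 0.73 ± 0.11 with disease on the low supply (1.66-fold, adjusted p = 0.00368) and fell by 0.69 on the log2 scale from the low to the normal supply (SE 0.11, 1.61-fold, adjusted p = 0.0438), with 0.04 ± 0.11 between the outer groups (adjusted p = 0.813). With normexp background correction these steps were 0.26 and -0.32 and neither was called (adjusted p = 0.139 and 0.204).

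Ppp1r15a (GADD34), which reverses the translation block of PERK, read 4.02, 3.39 and 3.75 in low Se non-GD, then 4.05, 4.21 and 4.29 in low Se GD, then 3.05, 3.0 and 3.33 in normal Se GD. Normal Se GD was below both other groups without overlap. The difference between the supplies was -1.06 ± 0.17 (2.08-fold lower, adjusted p = 0.0442) and that from low Se non-GD -0.59 ± 0.17 (1.51-fold lower, adjusted p = 0.0344), while 0.46 ± 0.17 in the first comparison was not called (adjusted p = 0.0911). The call in the last comparison was kept in 8 of 21 alternatives, and the difference ranged from -0.89 to -0.41 over the 21.

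Ddit3 (CHOP), the transcription factor that Trib3 and Ppp1r15a answer to, read -0.77, -0.83 and -0.78 in low Se non-GD, then -1.44, -1.19 and -1.13 in low Se GD, then -1.29, -1.30 and -1.05 in normal Se GD. Both diseased groups were below low Se non-GD, by -0.46 ± 0.12 (1.38-fold lower, adjusted p = 0.026) and -0.42 ± 0.12 (1.34-fold lower, adjusted p = 0.0296). These calls were kept in 12 of 22 and 11 of 21 alternatives. Atf4, the head of the arm, is controlled mainly through its translation. The probe that stands for it gave -0.17, -0.29 and -0.46 with no call (adjusted p from 0.078 to 0.515). Its second probe read -2.24, -2.75 and -2.40, then -2.11, -2.0 and -1.86, then -1.74, -1.59 and -1.43, and was called higher in the last comparison (0.88 ± 0.16, adjusted p = 0.00441). Over single probes, 18, 3 and 19 of 40 tested were called in the 3 comparisons in order, where all probes gave 25.1%, 2.18% and 33.5%.

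Calls fell both on members with an exact ERSE match in the window searched and on members without one. The latter include Herpud1 and Txndc5, which held other elements. In the first comparison 4 of the 9 genes with the ERSE rose (Calr, Canx, Derl3 and Hsp90b1) and 0 fell by limma, against 8 higher and 3 lower of the 21 matched members without it, where 12.8% and 12.2% of all genes were called higher and lower. Those 3 were Ddit3, Eaf2 and Sec61b, the last 2 of which had a second probe called higher. In the last comparison it was 3 higher of 9, against 9 higher and 3 lower of 21 (Sec61b, Ddit3 and Ppp1r15a), with 18.9% and 13.4% of all genes. Median differences were 0.37 and 0.30 in the first comparison and 0.42 and 0.24 in the last. These are descriptions of small sets and no test was made.

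The rest of the pathway was read from 8 lists of other genes. Their counts stand beside 12.8% higher and 12.2% lower of all genes in the first comparison and 18.9% and 13.4% in the last. Oligosaccharyltransferase, the complex that adds glycans to proteins in the ER, had 7 of 12 genes higher and 0 lower with disease on the low supply, and 9 higher and 1 lower (Rpn2, -0.29) in normal Se GD against low Se non-GD. Its subunit Ddost was 0.68 ± 0.14 and 1.1 ± 0.14 higher (adjusted p = 0.0124 and 0.0016) and Ostc 0.51 ± 0.12 and 1.05 ± 0.12 (adjusted p = 0.0189 and 0.00117). The list's medians were 0.39 and 0.60. Under median scaling 1 of 12 was called in the first comparison and 6 in the last (23.7% and 27.9% of all genes).

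Other genes of ER translocation gave 6 higher and 1 lower of 20 in the first comparison and 7 higher and 1 lower in the last. They included Tram1, a translocation-chain protein (1.11 ± 0.12 and 1.70 ± 0.12, adjusted p = 0.00144 and 0.00029), and the signal peptidase subunit Spcs1 (1.02 ± 0.09 and 1.04 ± 0.09, adjusted p = 0.000549 and 0.000414). The genes that ran the other way were Sec63 in the first comparison (-0.93) and Sec62 in the last (-0.43), partners in the post-translational route. In transport from ER to Golgi, 6 of 25 were higher and 0 lower, then 8 higher and 2 lower. Tmed2, a cargo receptor of the p24 family, was 1.22 ± 0.10 and 1.5 ± 0.10 higher (adjusted p = 0.000523 and 0.000227), and the retrieval receptor Kdelr1 1.68 ± 0.25 and 1.89 ± 0.25 (adjusted p = 0.00355 and 0.00178). Of 23 other ER folding enzymes, 2 were higher and 3 lower, then 6 higher and 2 lower, and of 20 other degradation genes 4 and 2, then 6 and 2. Pdia5 was lower in both diseased groups than in low Se non-GD (-2.37 ± 0.45 and -2.79 ± 0.45, adjusted p = 0.00817 and 0.00328), against the direction of Pdia4, whereas the oxidase Ero1a was higher (0.56 ± 0.11 and 1.12 ± 0.11, adjusted p = 0.0105 and 0.000766). Ero1a is on the list of ATF4 and CHOP targets as well.

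Upstream, of 13 sensors and regulators of the unfolded protein response, 5 were higher and 1 lower with disease on the low supply, and 3 higher and 0 lower in the last comparison. Creb3l2, an ER-bound transcription factor, rose by 1.26 ± 0.19 and 1.02 ± 0.19 (adjusted p = 0.00349 and 0.00554), and Bhlha15 (Mist1), a factor of secretory cells, by 0.56 ± 0.14 and 0.72 ± 0.14 (adjusted p = 0.0237 and 0.00691). The gene for PERK, Eif2ak3, was called in the first comparison (0.44 ± 0.10, adjusted p = 0.0137) and not in the last (0.25 ± 0.10, adjusted p = 0.0827). Of 16 other targets of ATF4 and CHOP, 2 were higher and 0 lower, then 3 higher and 1 lower. Chac1, a glutathione-degrading enzyme of that arm, had group means of -3.87, -1.90 and -2.99 in low Se non-GD, low Se GD and normal Se GD, and its rise of 1.97 ± 0.29 in the first comparison was called (adjusted p = 0.00325) while its difference of -1.09 between the supplies was not (adjusted p = 0.0995).

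Other plasma cell genes gave 3 higher and 1 lower of 13 in the first comparison and 6 higher and 0 lower in the last. Slamf7, a surface receptor of plasma cells, was at -2.03, -2.03 and -1.29 as group means, so that it was raised on the normal supply (0.74 ± 0.09 against each other group, adjusted p = 0.0369 and 0.00127). Cd28 (0.71 ± 0.18 and 0.84 ± 0.18) and Tent5c (1.03 ± 0.20 and 0.62 ± 0.20) rose in both diseased groups, and Tnfrsf17, the receptor BCMA, was called in the last comparison (0.72 ± 0.22, adjusted p = 0.0413). Bulk RNA does not show from which cells these transcripts came. Cd38, which B cells also carry, fell with disease on the low supply (-0.49 ± 0.13, adjusted p = 0.025). Between the supplies 3 of the genes on these 8 lists were called, where 1.27% of all genes were called (0.976% higher and 0.292% lower). They were Slamf7 (1 of 13 genes on its list), the oxidase Ero1b (1 of 23, 0.65 ± 0.11, adjusted p = 0.0441) and the lectin Erlec1 (1 of 20, -0.62 ± 0.10, adjusted p = 0.0448). The 5 other lists had 0 calls there by limma, and from 1 to 7 genes each at an unadjusted p under 0.05.

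Calls on these lists depended on the in-between arrays, as did those over all genes (1.02% and 11.6% called without them in the first and last comparison). Without them limma called 1 gene, on the ER to Golgi list, in the first comparison and 0 on the 7 other lists, with 2 to 5 genes each at an unadjusted p under 0.05 over the 8 lists. In the last comparison it called 5 oligosaccharyltransferase genes, 4 of translocation, 3 of transport to the Golgi and 1 each of the ATF4 and CHOP targets and other plasma cell genes, all higher, 1 higher and 1 lower each of the folding and degradation genes, and 0 sensors and regulators (3 at an unadjusted p under 0.05). Between the supplies all 8 lists had 0 calls by limma without these arrays, with normexp, with quantile normalization and with median scaling, with 0 to 8 genes per list at an unadjusted p under 0.05. Those settings called 0% to 0.175% of all genes. The slide as a block gave 0 to 3 calls per list, when 6.51% of all genes were called.

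**Figure D5:**
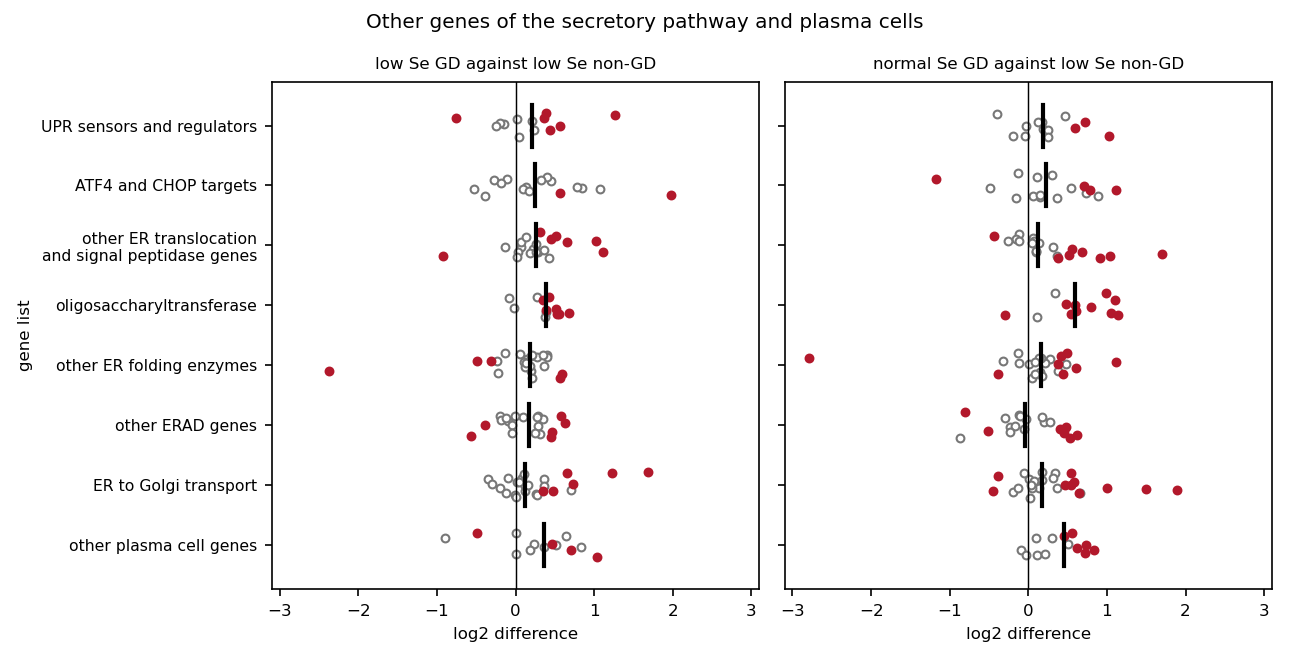
Log2 differences of the genes of 8 other lists (1 point per gene, filled for an adjusted p under 0.05, with vertical lines at list medians) for disease on the low supply (left) and for normal Se GD against low Se non-GD (right). Oligosaccharyltransferase and other plasma cell genes have the medians farthest above 0 on the right, at 0.60 and 0.45.

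Markers of other cells were also read. Their counts, here and below, stand beside 12.8% higher and 12.2% lower of all genes in the first comparison. Between the supplies the shares were 0.976% and 0.292%, and in the last comparison 18.9% and 13.4%. Without the in-between arrays 1.02% of all genes were called in the first comparison and 11.6% in the last. Of 15 B cell genes, 0 were higher and 4 lower with disease on the low supply by limma (8 at an unadjusted p under 0.05), 2 were higher and 0 lower between the supplies, and 2 were higher and 2 lower in the last comparison. Their summed signal (log2) was 7.35 to 7.56 in low Se non-GD, then 7.08 to 7.2 in low Se GD, then 7.27 to 7.4 in normal Se GD. The part of B cells in the values of the plasma cell genes was not tested. Macrophage genes, 15 tested, were higher for 9 and lower for 1 in the first comparison, higher for 1 between the supplies, and higher for 12 and lower for 0 in the last, with summed signals of 5.87 to 6.05, 6.47 to 6.53 and 6.6 to 6.78. Without the in-between arrays limma called 0 B cell genes in the 3 comparisons (4, 3 and 2 at an unadjusted p under 0.05). Of the macrophage genes it then called 0 in the first (10 at an unadjusted p under 0.05) and 6, all higher, in the last, and within slide 1 also 0 (9 at an unadjusted p under 0.05). Macrophages also express the general ER genes described here. Their part in these results was not tested.

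Pancreatic acinar cells also secrete in bulk, and the pancreas lies beside the spleen. Of 22 acinar genes, 9 were well above background on all 9 arrays and 3 on none. Of the 18 tested, 0 were higher and 2 lower in the first comparison (Pnlip -3.24 and Rbpjl -3.26), 0 were called between the supplies by limma (1 at an unadjusted p under 0.05), and 2 were higher and 2 lower in the last. Summed signals were 2.36 to 3.03 in low Se non-GD, then 1.49 to 1.59 in low Se GD, then 1.12 to 1.87 in normal Se GD. Bright genes weigh most in such a sum. Counted singly, dim genes included, 13 of the 18 genes had positive differences in the first comparison and 10 in the last. Their medians were 0.05 and 0.03, against 0.08 and 0.06 over all genes. Without the in-between arrays limma called 0 in the first (2 at an unadjusted p under 0.05) and 2, both lower, in the last. The part of acinar RNA was not tested. Proliferation genes, 12 tested, were higher for 3 in the first comparison and had 0 calls between the supplies by limma (9 at an unadjusted p under 0.05), where all 12 had negative differences (median -0.79). Their summed signal was 5.60 to 6.80, 6.45 to 6.92 and 5.79 to 6.0 in the 3 groups, and its part in the calls of Trib3 and Ppp1r15a was not tested.

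Among the remaining marker lists, fat genes varied within low Se GD, with summed signals of 6.33, 5.46 and 3.93, against 3.1 to 3.68 and 3.15 to 3.18 in the outer groups. Of 11 fat genes, 6 were higher and 1 lower with disease on the low supply, 1 was lower between the supplies, and 1 was higher and 1 lower in the last comparison. Of 13 erythroid genes limma called 0 in any comparison, with 1, 6 and 0 at an unadjusted p under 0.05. Between the supplies 12 of the 13 had negative differences, with a median of -1.02. The groups did not overlap for 11, all lower on the normal supply, where all genes gave 11.4% lower. Megakaryocyte genes were higher for 3 of 8 in both comparisons with low Se non-GD, and T cell genes had 0 calls of 10, with 0, 0 and 1 at an unadjusted p under 0.05. Of 9 stroma genes, Pdgfra was called higher in both comparisons with low Se non-GD (1.32 ± 0.28 and 1.26, adjusted p = 0.0121 and 0.0111), Pdgfrb in the last (0.50, adjusted p = 0.0216), and limma called 0 between the supplies (0 at an unadjusted p under 0.05). Their summed signals were 4.99 to 5.18, 4.71 to 5.17 and 5.18 to 5.38. Of 6 plasmacytoid dendritic cell genes, Bst2 was called higher (0.96 ± 0.27 and 1.45, adjusted p = 0.0367 and 0.00587) and Runx2 lower (-2.62 ± 0.38 and -2.72, adjusted p = 0.00318 and 0.00201) in those comparisons, and limma called 0 between the supplies (1 at an unadjusted p under 0.05). Their summed signals were 8.04 to 8.11, 7.21 to 7.85 and 6.19 to 7.5. Without the in-between arrays limma called 0 proliferation, fat, stroma, megakaryocyte and plasmacytoid dendritic cell genes in the first comparison (3, 6, 1, 2 and 2 at an unadjusted p under 0.05), and in the last 2 megakaryocyte genes, both higher, and 1 plasmacytoid dendritic cell gene, lower. Whether these cells contributed to the values of the secretory genes was not tested.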

How the data were processed

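Spleen RNA of 9 samples was hybridised to Agilent 1-colour arrays, per the labels' protocols and the file headers. The deposited scanner files give an intensity per spot, background-subtracted and spatially detrended by Feature Extraction 11.0.1.1 and not scaled between arrays, per the file headers, with marks (0 or 1) for spots above background, saturated (0 spots) or outlying. The authors also deposited a log2 table, an alternative here, whose scaling no header or label describes. Every column has the median 6.435. Each of its 3 low Se non-GD columns correlated most with an array of that group under another number (r of 0.997 to 0.998, own number 0.980 to 0.987), which leaves those numbers uncertain.

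Processed signals were taken as log2 minus each array's 75th percentile over non-control spots, outlier spots were left out, and spots of a probe were averaged. Accessions were matched without versions to RefSeq symbols (GRCm38.p6), which named 27234 of 39429 probes. The probe with the highest mean stands for a gene. Genes above background on fewer than 3 arrays (6078) or with a missing value (48) were left out. limma 3.58.1 in R 4.3.3 (lmFit, eBayes, 2-sided) was fitted to all 9 arrays, with 6 residual and 1.81 prior degrees of freedom, and tested on simulated data. The number of arrays limits the precision. The genes and lists were chosen with earlier results of these data known, so that the calls are not independent evidence. Members are all accounted for; called members and those with probes called in opposite directions are given in full, and of each list up to 4 called genes with the smallest adjusted p may be named (Rpn2 and Sec62 were named after their values were seen). Alternatives covered background correction (normexp with an offset of 50 on median spot signals), scaling, the filter, probe choice, slide, replicate number, samples fitted and each array left out.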

Additional observations from a re-analysis of the deposited data

How the results depend on the processing

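With all choices but 1 kept, the 15 called members of the first comparison (disease on the low supply) kept their call in 260 of 330 recalculations and lost it in 69, and Eaf2 turned to 0.14 (adjusted p = 0.462) with the mean of its probes. In the second (between the supplies) 19 of 66 kept it, and in the last 274 of 315. In the last, Prdm1 turned from -0.09 to 0.62 with the slide as a block (adjusted p = 0.037). With 1 array left out, members called ranged from 7 to 23 and probes from 8 to 28 in the first comparison, and from 0 to 4 and 0 to 5 in the second. The member median in the second ranged from -0.043 to 0.108, and that of all genes from -0.031 to 0.099. Over all genes the share called then ranged from 13.1% to 41% in the first and from 0% to 4.09% in the second.

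Within slide 1 the first comparison gave 1 member and 2 probes. Without the in-between arrays, an alternative chosen after seeing the data, members and probes called were 1 and 1, 0 and 0, and 8 and 10 in the 3 comparisons. Median scaling moved the median of all genes in the first comparison from 0.08 to 0.18, normexp to -0.16, and the first gave a member median of 0.40 with 10 higher and 1 lower, against 12 and 3. In the last comparison it gave 9 higher and 1 lower. In the second, limma called 0 members and 0 probes with normexp, median scaling, no filter, the replicate block, only the 2 groups compared and the authors' deposited table, with 5 to 12 members at an unadjusted p under 0.05, and 1 and 1 with quantile normalization. The slide as a block gave 6 and 6 (6.51% of all genes and 8.17% of all probes) with a median of -0.0486, against 0.12 over all genes. Slide 2 alone gave 5 probes (12.9% of all probes) and a median of -0.0486, again against 0.12 over all genes. In the last comparison the member median was 0.17 with normexp (-0.03 over all genes), 0.43 with quantile normalization (0.08) and 0.46 in the authors' deposited table (0.10). With the slide as a block it was 0.061, below the 0.13 of all genes, and 11 probes were called (19.1% of all probes). Where no cause is built into an alternative, the cause was not tested.

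Same-numbered arrays did not deviate together (correlations -0.21 to 0.10). Because the numbers of low Se non-GD are uncertain, this cannot settle whether samples were paired. The replicate block, which uses the same numbers, gave 15, 0 and 14 members (19.6%, 0% and 27.3% of all genes). Signal over background limits dim genes: Hyou1 was above background on 7 of 9 arrays, and the calls of Sdc1 and Trib3 were lost with normexp background correction.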
